A study of Danio rerio with 24 samples.

Results

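Livers of 9 male zebrafish aged 1 year and labelled with rotenone at 37.5 nM were compared by the number each fish carries in its label. The lower number series held fish 173, 174, 175 and 177 (n = 4) and the upper series held fish 198, 199, 200, 201 and 202 (n = 5), out of 24 fish in the whole study. The fish were chosen by age, concentration and fish number alone, so no measured value entered the choice of fish. All 9 fish belonged to the AB JxTu strain and gave 1 library each of total liver RNA. The labels do not say what separates the number series. A treatment, a tank, a sampling day or a library batch that the labels leave out cannot be told apart from the number. No label names an untreated fish or how long a fish was exposed. The same split of numbers exists in 2 other sets of fish: 1-year males of that strain at 3.75 nM (fish 163, 165, 166 and 167 against fish 189 to 193), and 3-year males at 37.5 nM that also carried the transgene Tg(flk:mCherry) (fish 178 and 181 against fish 194 to 197). Every difference below is the lower series minus the upper series.

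Rotenone blocks complex I of the mitochondrial respiratory chain, the entry point for electrons from NADH. Cells with impaired mitochondria or with a heavy load of secreted proteins are known to raise chaperones of the mitochondrial matrix or of the endoplasmic reticulum (ER), and the liver, which makes most plasma proteins, holds much of that machinery. The liver also sets whole-body iron through the hormone hepcidin, burns fatty acids during fasting and makes cholesterol. Levels of these messages move with feeding, time of day and oxygen.

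Levels are given as CPM, the share of a library's counts that fall on a gene, scaled to a common depth with TMM factors; without a correction for gene length, they compare fish and not genes. Total counts ran from 29034300 to 45297644 per library. The number of genes with at least 10 counts was 15166 ± 312 (SD, n = 4) in the lower and 16222 ± 780 (SD, n = 5) in the upper series (exact two-sided permutation p = 0.0635, where the smallest p that 126 splits allow is 0.0159). Hepatocyte markers were high in every library, with a mean over markers of 11.5 to 12.8 log2 CPM. Fish 199, of the upper series, had the highest summed hepatocyte markers, at 362564 CPM against 150486 to 255075 CPM in the other fish. The 100 genes with the most counts took 58.5% of its counts, against 47.6 to 54.4% elsewhere. Fish 198 and 200, both in the upper series, stood apart in intestine markers. Their intestine markers averaged 6.27 and 8.02 log2 CPM, against 0.645 to 2.37 in the other 7 fish. SLC15A1 (ENSDARG00000044528), the peptide transporter of the gut brush border, reached 336 and 1696 CPM in these fish and at most 1.58 CPM elsewhere. In fish 198, actc1b, a muscle actin, was at 392 CPM and ins, which encodes insulin, at 297 CPM. Markers of the exocrine pancreas were spread over both series, from 2.74 to 8.49 log2 CPM. Their summed level ran from 214 CPM in fish 201 to 15873 CPM in fish 198. In the lower series it reached 14368 CPM in fish 174 and 11988 CPM in fish 175. Markers of stellate cells and fibroblasts averaged 2.54 to 2.78 log2 CPM in the lower and 3.11 to 4.57 in the upper series, and endothelial markers 2.20 to 2.64 and 2.72 to 3.04, both with no overlap. Gene differences between the series therefore stand beside differences in these markers and beside messages of other tissues in libraries of both series. The part of these in each result was not tested beyond the values given here. In whole-liver RNA, fewer cells of a type and less RNA per cell cannot be told apart.

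**Figure D1:**
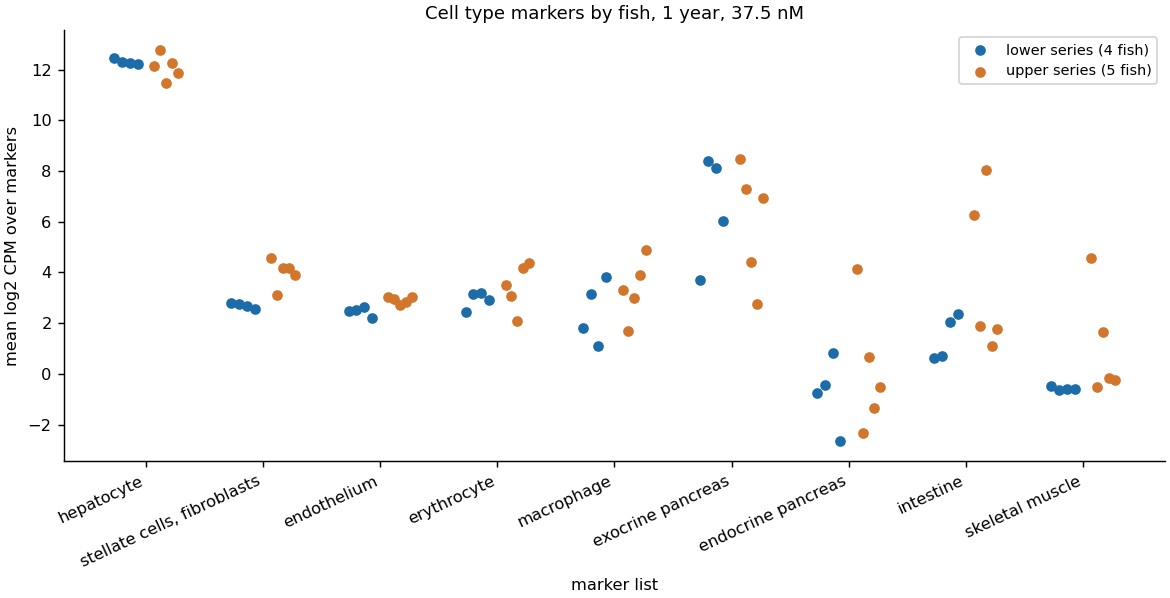
Mean log2 CPM over the tested markers of 9 cell types (vertical axis) for each of the 9 fish, 1 point per fish, with the lower series in blue and the upper series in orange. Intestine markers stand at 6.27 and 8.02 in fish 198 and 200 against at most 2.37 elsewhere, and the stellate cell and fibroblast markers of the series do not overlap.

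Of 15958 genes tested with the quasi-likelihood test of edgeR, 5 passed an adjusted p of 0.05, which is 0.0313% of those tested. In the lower series 3 were higher (0.0188%) and 2 lower (0.0125%). The count moved with the scaling: 2 higher and 2 lower with RLE factors, 8 and 3 with upper-quartile factors, and 7 and 11 with library size alone. It fell to 0 when fish 174 or fish 177 was left out, with 2569 and 3031 genes at an unadjusted p under 0.05 in those fits, and to 1 without fish 198 and 2 without fish 201. It reached 16 without fish 202, 57 without fish 199 and 72 without fish 200. DESeq2 called 1759 of the 18740 genes it tested and limma voom with quality weights 447 of 15958, and both lists held the 5 edgeR genes. The 5 genes are described first; herc7 and HDAC4 fell short of the mean of 4 CPM set for naming and are named because so few passed.

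FAM13A (ENSDARG00000075564) had the lowest p of all. It was at 18.5, 16.1, 16.9 and 13.3 CPM in fish 173, 174, 175 and 177. In fish 198 to 202 it was at 81.5, 65.0, 85.8, 57.7 and 57.9 CPM. The lowest upper-series fish lay more than 3 times above the highest lower-series fish. FAM13A fell by 2.11 on the log2 scale (SE 0.18, edgeR adjusted p = 0.0108). Without fish 174 or fish 177 it no longer passed, and the edgeR adjusted p ran from 0.00404 to 0.0789 when each of the 9 fish was left out.

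HDAC4 (ENSDARG00000098349), a class IIa histone deacetylase that represses targets of MEF2 factors, was low throughout. The lower-series fish had 0.477, 0.488, 0.774 and 0.348 CPM, and the upper-series fish 3.44, 2.81, 2.74, 2.24 and 3.36 CPM. The groups did not overlap, and HDAC4 fell by 2.47 on the log2 scale (SE 0.28, edgeR adjusted p = 0.0305). It passed in 4 of the 9 fits that left out a fish.

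ccdc141 (ENSDARG00000095675), a coiled-coil protein known from neuron migration in mice, was at 35.2, 39.4, 40.5 and 41.5 CPM in the lower series. The upper series had 6.68, 7.46, 7.09, 4.01 and 10.2 CPM. The 4 lower-series fish lay close together and far above every upper-series fish, and ccdc141 rose by 2.47 on the log2 scale (SE 0.23, edgeR adjusted p = 0.0142). MYH10 (ENSDARG00000000103), the heavy chain of non-muscle myosin IIB, was at 202, 286, 391 and 282 CPM against 91.6, 109, 71.9, 82.7 and 94.7 CPM. No fish of one series reached the other, and MYH10 rose by 1.69 (SE 0.20, edgeR adjusted p = 0.0471). Its call was lost with RLE factors and in 6 of the 9 fits that left out a fish. herc7 (ENSDARG00000098906), of the HERC family of ubiquitin ligases, was at 4.95, 3.14, 2.81 and 3.17 CPM in the lower series and at 0.527 to 0.805 CPM in the upper. It rose by 2.35 (SE 0.24, edgeR adjusted p = 0.0209). The ccdc141 call was lost without fish 174, 177 or 198, and that of herc7 without any of fish 174, 177, 198 and 201. Without both fish with high intestine markers, the calls of ccdc141, herc7, MYH10 and HDAC4 were lost and that of FAM13A held. With the stellate cell and fibroblast markers as a covariate, a setting added after the data were seen, none of the 5 passed (0 calls, 1117 genes at an unadjusted p under 0.05). In that fit the changes were -1.78 in FAM13A, -2.32 in HDAC4, 2.12 in ccdc141, 1.34 in MYH10 and 2.69 in herc7, with edgeR adjusted p from 0.35 to 0.565. The stellate cell and fibroblast markers did not themselves overlap between the series. This fit therefore cannot tell them apart from the number series, and the lost calls cannot be assigned to either.

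Over the 9 fish, the levels most like that of FAM13A were those of SVIL, pbxip1b, nlrc5, camk2g1 and CAPNS1, with Pearson r from 0.952 to 0.976 on log2 CPM. These genes share the libraries and the split with FAM13A, so the values are a description.

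**Figure D2:**
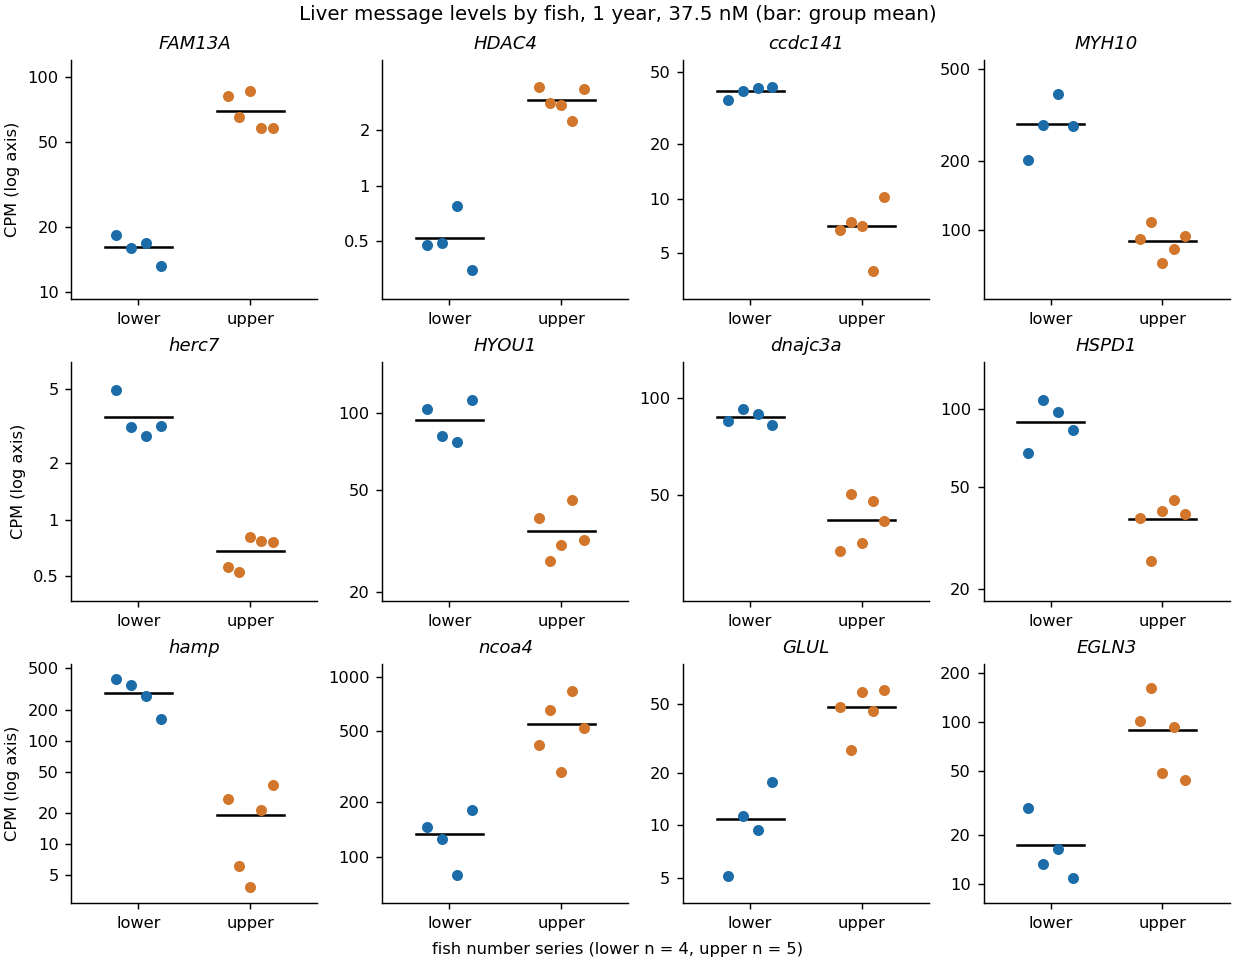
CPM on a log axis for 12 genes, 1 point per fish and a bar at the group mean, with the lower series (n = 4) in blue and the upper series (n = 5) in orange. In all 12 panels the points of the series do not overlap, although only FAM13A, HDAC4, ccdc141, MYH10 and herc7 passed the adjusted threshold.

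Separation of single fish was far more common than a call. At an unadjusted p under 0.05 there were 3266 genes (20.5%), 1457 higher (9.13%) and 1809 lower (11.3%) in the lower series. In 829 genes (5.19%) every lower-series fish was above every upper-series fish, and in 494 (3.1%) every one was below, 1323 genes in all (8.29%). With upper-quartile factors these counts were 1116 and 399. At an adjusted p under 0.1 there were 311 genes (1.95%). The gene lists below are read against these shares; over all tested genes the median change was -0.02. Except for the 5 genes above, no gene named below passed the adjusted threshold in the edgeR fit, so its values are given as levels.

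ER chaperones were at higher levels in the lower series. Of 40 tested members of the ER unfolded protein response list, 16 lay wholly above in the lower series and 1 wholly below, and the median change was 0.46. With fish 198 and 200 left out, 21 of 39 lay above, where 9.59% of all genes did. Summed over the list, the 4 lower-series fish had 3765 to 4674 CPM and the 5 upper-series fish 2363 to 2904 CPM. HYOU1, a large ER chaperone of the HSP70 family, was at 103, 81.2, 76.7 and 112 CPM in the lower series. Its upper-series levels were 38.9, 26.3, 30.5, 45.7 and 31.8 CPM. The series did not overlap, the difference was 1.43 (SE 0.19) on the log2 scale and the edgeR adjusted p was 0.0527.

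dnajc3a, a co-chaperone of the ER lumen, was at 85.2, 92.7, 89.5 and 82.8 CPM against 33.4, 50.4, 35.6, 47.9 and 41.6 CPM. Here too the 4 lower-series fish were close together and above all others (difference 1.07, SE 0.15, edgeR adjusted p = 0.0527). HSPA5, or BiP, the main ER chaperone and sensor partner of the unfolded protein response, was at 138, 101, 109 and 118 CPM in the lower series and at 77.2, 42.3, 65.6, 58.1 and 48.6 CPM in the upper. Its difference was 1.00 (SE 0.19, edgeR adjusted p = 0.0776). MANF, a small secreted protein of stressed ER, was at 25.8 ± 2.22 CPM (SD, n = 4) against 9.23 ± 2.74 CPM (SD, n = 5). HSP90B1, the ER form of HSP90, was at 555 ± 188 CPM against 196 ± 52.4 CPM, with edgeR adjusted p of 0.055 for MANF and 0.0655 for HSP90B1. None of these genes overlapped between the series.

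Several mitochondrial chaperones and proteases were also at higher levels in the lower series. Of 20 tested members of their list, 9 lay wholly above in the lower series and none wholly below, and the median change was 0.35. With upper-quartile factors 11 lay above, and with library size alone 6 lay above and 1 below. The summed level of the list overlapped, at 1071 to 1227 CPM in the lower and 866 to 1206 CPM in the upper series. Fish 199 had the highest sum of the upper series. HSPD1, the mitochondrial chaperonin HSP60, was at 67.4, 108, 97.5 and 82.5 CPM in the lower series and at 37.7, 25.8, 40.3, 44.3 and 39.3 CPM in the upper. Its difference was 1.25 (SE 0.19, edgeR adjusted p = 0.0594). The groups were apart, with fish 199 lowest of all. HSPE1, its HSP10 partner, was at 32.1, 45.6, 46.6 and 34.5 CPM against 19.6, 27.4, 23.3, 27.5 and 24.1 CPM (difference 0.70, SE 0.16, edgeR adjusted p = 0.0971). LONP1, a matrix protease, was at 38.58 ± 4.25 CPM against 24.6 ± 3.74 CPM, again without overlap.

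Of 40 tested cytosolic chaperones, 7 lay wholly above in the lower series and none below (median 0.26), and 4 of those 7 were subunits of the TRiC chaperonin that folds actin and tubulin, CCT5 and TCP1 among them. With library size alone 5 of the 40 lay above and 1 below. CCT5 was at 155 ± 4.74 CPM against 105 ± 11.2 CPM and TCP1 at 118 ± 3.16 CPM against 84.7 ± 7.06 CPM (n = 4 and 5). HSP90AA1 (ENSDARG00000024746), in humans the stress-inducible cytosolic HSP90, was at 2.74, 3.45, 3.35 and 4.04 CPM in the lower series and at 3.86, 2.16, 2.27, 2.65 and 3.61 CPM in the upper. The series overlapped, and the difference was 0.22 (SE 0.22, edgeR adjusted p = 0.597).

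Complex I is the target of rotenone. None of 38 nuclear-encoded complex I subunits separated the series, none had an unadjusted p under 0.05, and their median change was 0.07. All 13 mitochondrially encoded messages had negative changes, from -0.38 to -0.07, none with an unadjusted p under 0.05. Their median change was -0.25. When single fish were left out it ran from -0.40 to 0.02, the latter without fish 199. Their summed level ran from 56427 to 77455 CPM in the lower and from 43739 to 119590 CPM in the upper series. Nuclear subunits of complexes II to V had 3 of 37 members wholly above in the lower series (8.11%, beside 5.19% of all tested genes).

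Most messages of cytosolic ribosomal proteins were higher by small amounts in the lower series. Of 73 cytosolic ribosomal proteins, 43 were wholly above in the lower series and none below, 72 had a positive change, and the changes ran from -0.05 to 0.44 with a median of 0.27. With library size alone 23 separated, and with upper-quartile factors 56. Their summed level was 55995 to 58833 CPM in the lower series. In fish 198 to 202 it was 49002, 53418, 46402, 48442 and 39018 CPM, so every upper-series fish lay below every lower-series fish. RPL5 (ENSDARG00000015862), which binds the 5S ribosomal RNA, was at 927 ± 60.0 CPM against 684 ± 104 CPM. RPL15, of the large subunit, was at 784 ± 30.0 CPM against 612 ± 56.9 CPM. The edgeR adjusted p was 0.176 and 0.18, and the lowest of the list was 0.176.

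Of 59 ribosome biogenesis genes, 9 lay above (15.3%) and 1 below (1.69%), beside 5.19% and 3.1% of all tested genes. With library size alone 3 lay above (5.08%), beside 3.38% of all tested genes. MPHOSPH10, of the small subunit processome, was at 12.7, 14.0, 13.4 and 12.5 CPM against 8.92, 6.11, 9.27, 7.57 and 8.82 CPM (difference 0.70, SE 0.14, edgeR adjusted p = 0.0806). GNL3, or nucleostemin, was at 13.1 ± 1.76 CPM and 12.97 ± 2.99 CPM. Among 30 tested tRNA synthetases and targets of the stress factor ATF4, 3 lay above (10%) and 1 below (3.33%), with a median of 0.29. The seryl-tRNA synthetase SARS1 was at 95.3, 78.0, 78.2 and 83.0 CPM in the lower series and at 55.7, 52.9, 48.7, 57.9 and 51.1 CPM in the upper (difference 0.65, SE 0.11, edgeR adjusted p = 0.0641). The glycyl-tRNA synthetase GARS1 was at 92.2 ± 8.61 CPM against 60.0 ± 4.44 CPM. The member below was slc3a2a, the heavy chain of several amino acid exchangers, at 10.5, 10.9, 18.3 and 12.7 CPM against 60.9, 38.4, 217, 45.9 and 62.6 CPM. Its highest value was in fish 200, a fish with high intestine markers, and its edgeR adjusted p was 0.0829. Of 46 proteasome genes, 5 lay above (10.9%) and none below, and with library size alone 0 lay above.

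**Figure D3:**
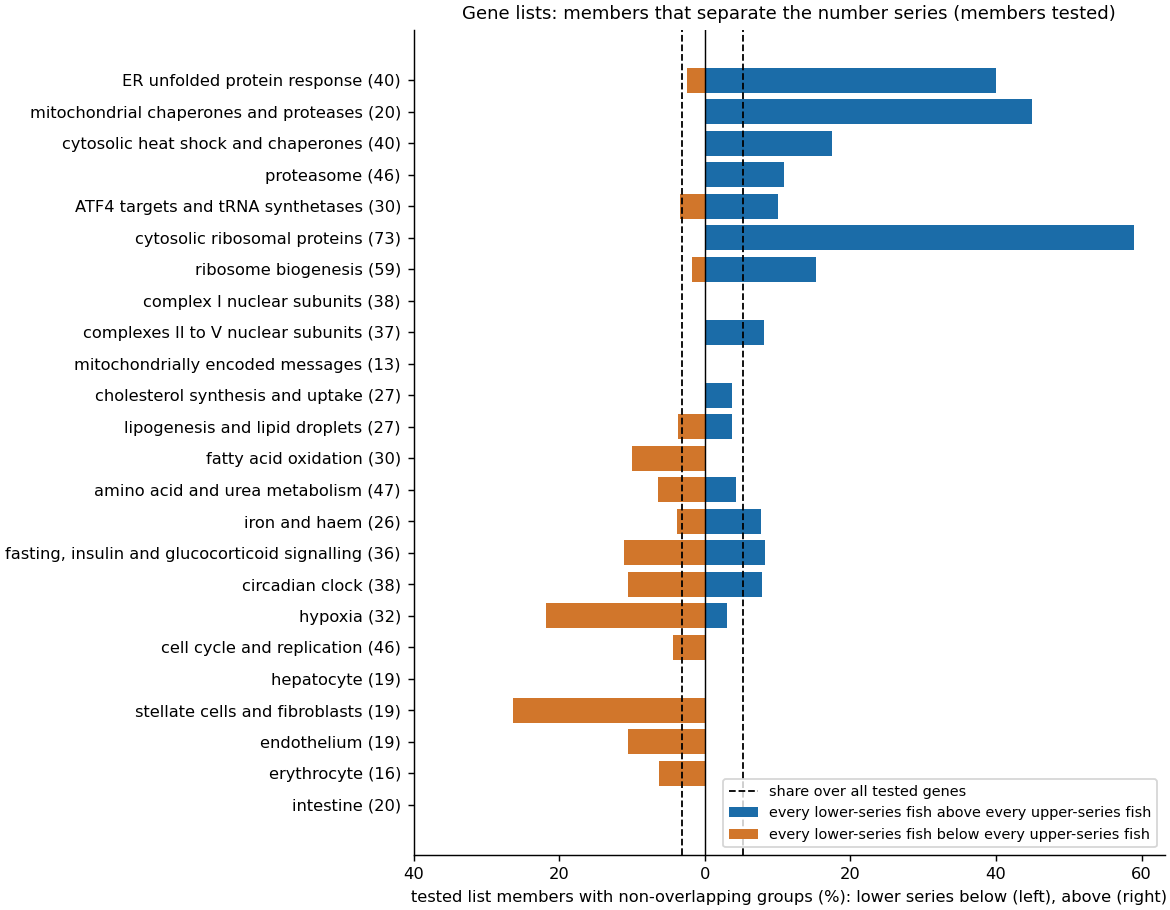
Share of tested members of 24 gene lists (in %, number tested in brackets) in which every lower-series fish lay above every upper-series fish (blue, right) or below it (orange, left), with dashed lines at the shares over all tested genes, 5.19% and 3.1%. Cytosolic ribosomal proteins, mitochondrial chaperones and the ER unfolded protein response reach farthest to the right, and stellate cell markers and hypoxia genes farthest to the left.

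Several genes that answer to low oxygen lay on the other side. Of 32 tested hypoxia genes, 7 lay wholly below in the lower series and 1 above, with a median of -0.76. With upper-quartile factors 5 lay below, and with library size alone 8. The list was not uniform: 10 of the 32 had a positive change and 18 had no unadjusted p under 0.05. Without fish 198 and 200 there were 11 below, where 6.89% of all genes were. The genes named next are all from the lower side. EGLN3, a prolyl hydroxylase that marks hypoxia-inducible factors for degradation, was at 29.4, 13.2, 16.4 and 10.9 CPM in the lower series. It was at 101, 162, 48.6, 93.1 and 44.0 CPM in the upper. Fish 199 and 198 were highest, the series did not overlap, and the difference was -2.36 (SE 0.47, edgeR adjusted p = 0.0782).

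MXI1, an antagonist of MYC, was at 23.9, 39.2, 23.8 and 32.5 CPM against 58.8, 69.8, 47.6, 56.3 and 61.1 CPM (difference -0.98, SE 0.19, edgeR adjusted p = 0.0776). ANKRD37, a target of hypoxia-inducible factor in mammals, was at 0.581 to 2.68 CPM against 3.25 to 14.0 CPM. EPAS1 (ENSDARG00000008697), the factor HIF-2 alpha itself, was at 97.8 ± 24.5 CPM against 221 ± 76.9 CPM. SLC2A1 (ENSDARG00000007412), the glucose transporter GLUT1, was at 3.09 ± 0.206 CPM against 6.53 ± 2.39 CPM. In all 4 genes the series were apart; fish 200 had the lowest upper-series level in each of them, and the highest lower-series level of SLC2A1 was 3.34 CPM against 3.37 CPM in fish 200.

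The gene with the highest difference among those of iron balance was hamp, which encodes hepcidin, the liver hormone that closes the iron exporter ferroportin. It was at 392, 343, 273 and 161 CPM in fish 173, 174, 175 and 177. It was at 27.1, 6.17, 3.82, 21.3 and 37.1 CPM in fish 198 to 202. The lowest lower-series fish was above every upper-series fish by more than 4 times, while levels within the upper series spread widely. The difference was 3.93 (SE 0.67, edgeR adjusted p = 0.0641), from 3.66 to 4.30 when single fish were left out, with adjusted p from 0.044 to 0.156.

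Other iron genes did not share 1 direction. fthl31, a ferritin heavy chain-like gene, was at 27.9, 27.2, 20.1 and 10.2 CPM against 9.83, 4.68, 8.73, 7.66 and 4.50 CPM. fth1a, the ferritin heavy chain, was at 222 ± 22.1 CPM against 503 ± 263 CPM, without overlap and with fish 200 highest at 939 CPM. ncoa4, the receptor that carries ferritin to the lysosome and not a member of the list, was at 147, 125, 78.6 and 182 CPM against 419, 657, 294, 842 and 522 CPM (difference -2.04, SE 0.36, edgeR adjusted p = 0.0641). SLC40A1, ferroportin, was at 26.1 to 45.4 CPM against 43.0 to 165 CPM, and the series overlapped. Of the 26 tested members, 2 lay above (7.69%) and 1 below (3.85%), beside 5.19% and 3.1% of all tested genes. Among red cell messages, hbaa2, an adult alpha globin, was at 0.656, 1.39, 2.06 and 1.8003 CPM against 4.66, 5.35, 3.73, 10.1 and 8.62 CPM. The red cell anion exchanger SLC4A1 (ENSDARG00000012881) was at 9.96 ± 3.56 CPM against 23.4 ± 14.8 CPM and overlapped. Of the 16 tested erythrocyte markers 1 lay wholly below (6.25%, beside 3.1% of all tested genes) and 12 had no unadjusted p under 0.05. Their median was -0.67, or -0.35 without fish 202, and their means over markers overlapped, from 2.46 to 3.18 log2 CPM in the lower and from 2.08 to 4.37 in the upper series.

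Genes of fasting, fat burning and steroid response included several at lower levels in the lower series, some of which varied widely within it. PDK4, a kinase that inhibits pyruvate dehydrogenase in the fasted state, was at 77.5, 65.6, 54.3 and 75.9 CPM against 151, 161, 123, 166 and 133 CPM. The series were far apart and tight, with a difference of -1.10 (SE 0.16, edgeR adjusted p = 0.0528). BBOX1, the last enzyme of carnitine synthesis, was at 28.4, 50.7, 29.8 and 30.5 CPM against 93.6, 168, 81.5, 196 and 144 CPM (difference -1.97, SE 0.32, edgeR adjusted p = 0.0626). PDK4 and BBOX1 are not members of a list and were picked after their values were seen. CPT1B, which hands fatty acids to carnitine for entry into mitochondria, was at 100.03 CPM in fish 173 and 298 to 334 CPM in the other lower-series fish, against 384 to 1291 CPM. hadhaa, of the trifunctional protein of beta oxidation, was at 126 ± 11.3 CPM against 178 ± 28.1 CPM. Of 30 tested genes of fatty acid oxidation, 3 lay wholly below (10%, beside 3.1% of all tested genes) and none above. The list's median of -0.08 was near that of all genes.

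In the list of fasting, insulin and glucocorticoid signalling, 3 of 36 genes lay above and 4 below. hsd20b2, an enzyme of glucocorticoid breakdown in zebrafish, was at 11.7, 13.1, 9.63 and 12.2 CPM against 22.7, 53.6, 28.1, 41.9 and 39.7 CPM. Its difference was -1.67 (SE 0.25, edgeR adjusted p = 0.0567). FKBP5, a co-chaperone and target of the glucocorticoid receptor, was at 28.6, 401, 201 and 697 CPM in the lower series and at 740.2, 924, 743, 829 and 949 CPM in the upper. Its lower-series levels ran over a more than 20-fold range while the upper-series fish lay together, and the difference was -1.33 (SE 0.68, edgeR adjusted p = 0.299). PPARGC1A, the coactivator PGC-1 alpha, was at 15.4, 12.7, 1.63 and 11.9 CPM against 21.5 to 38.3 CPM. PCK1, the gluconeogenic enzyme, ran from 115 to 1626 CPM in the lower and from 287 to 1854 CPM in the upper series and did not separate them.

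The paralogs foxo3a and foxo3b, transcription factors held back by insulin, lay in opposite directions. foxo3a was at 25.4, 24.1, 17.6 and 12.7 CPM against 8.76, 12.4, 9.18, 3.62 and 3.72 CPM. foxo3b was at 30.9, 85.1, 27.7 and 59.7 CPM against 89.8, 106, 105, 99.4 and 124 CPM. The series were apart in both paralogs. crtc2, a coactivator of CREB, was at 21.4 ± 0.928 CPM against 13.04 ± 1.81 CPM. In amino acid metabolism, GLUL (ENSDARG00000100003), which makes glutamine, was at 5.10, 11.3, 9.43 and 17.6 CPM against 47.9, 27.1, 58.3, 45.3 and 60.2 CPM (difference -2.14, SE 0.37, edgeR adjusted p = 0.0641). XDH, which oxidises purines to urate, was at 395 ± 55.2 CPM against 196 ± 51.3 CPM. The list of 47 had 2 members above (4.26%) and 3 below (6.38%), beside 5.19% and 3.1% of all tested genes.

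Cholesterol genes varied widely within the lower series. The median over 27 tested genes was 0.85, and NSDHL, an enzyme of late sterol synthesis, was the only member of the list that separated the series; without fish 175 the median was 0.06. LSS, lanosterol synthase, was at 68.0, 17.9, 141 and 29.0 CPM against 6.74 to 31.9 CPM. Fish 173 and 175 were high, and fish 174 and 177 did not exceed the highest upper-series fish. MVK, mevalonate kinase, was at 3.19, 1.95, 8.86 and 2.58 CPM against 0.417 to 2.18 CPM. AACS, which is outside the list and turns ketone bodies into acetoacetyl-CoA for lipid synthesis, was at 84.6, 14.8, 45.2 and 14.1 CPM against 5.59 to 11.02 CPM. Its series did not overlap, and the same 2 fish were highest.

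**Figure D4:**
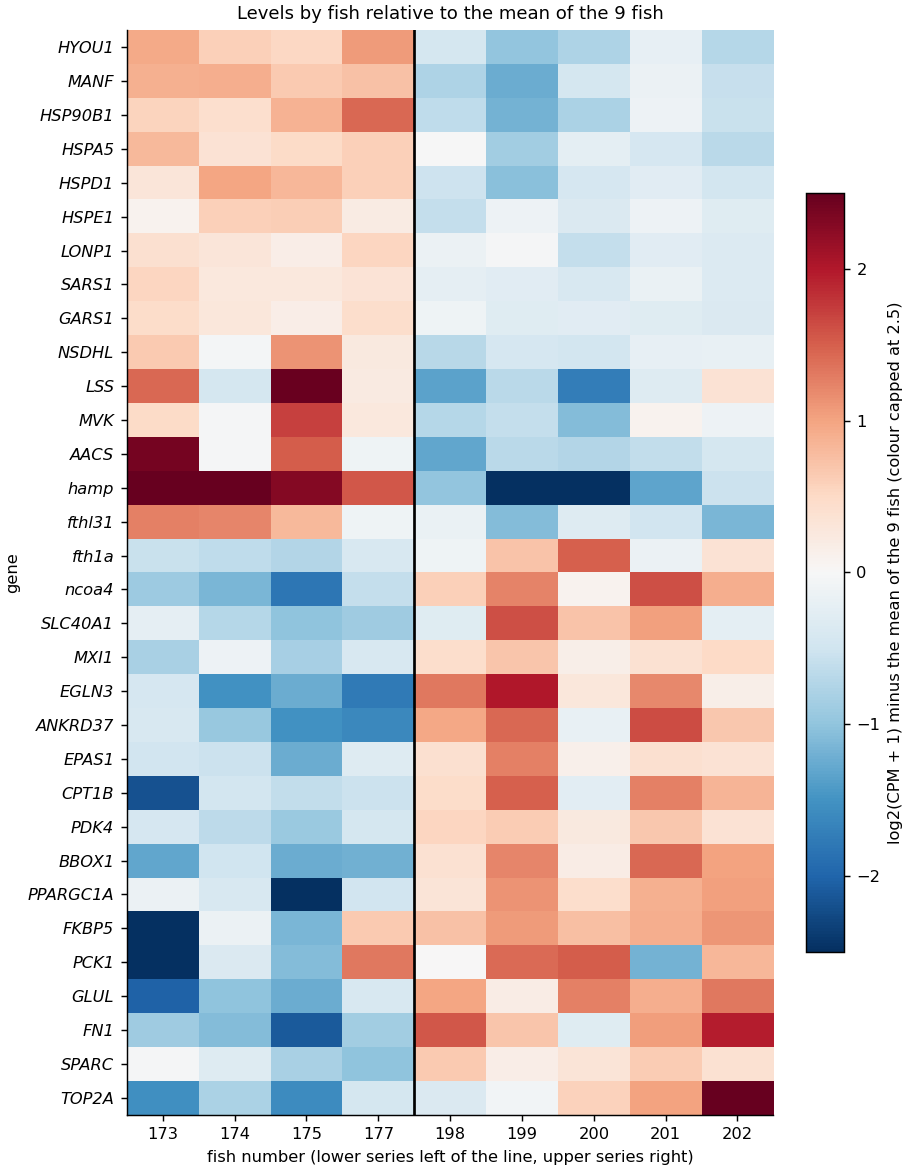
Level of 32 genes (rows) in the 9 fish (columns) as log2(CPM + 1) minus the mean of the 9 fish, in red above and blue below the mean, with the colour capped at 2.5 and a line between the series. ER and mitochondrial chaperones are red across all 4 lower-series fish, while cholesterol genes are red mainly in fish 173 and 175 and FKBP5 is lowest in fish 173.

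Clock genes gave 3 of 38 members above (7.89%) and 4 below (10.5%), beside 5.19% and 3.1% of all tested genes, with a median of 0.04. Of 2 gene rows with the symbol PER1, a repressor arm of the clock, ENSDARG00000056885 was at 1.49, 4.50, 1.98 and 2.90 CPM against 8.63, 13.9, 9.69, 5.66 and 11.8 CPM (difference -1.87, SE 0.37, edgeR adjusted p = 0.0787). The other row, ENSDARG00000012499, was at 32.2 ± 12.2 CPM and 28.1 ± 8.49 CPM. tefb, a clock-output factor, was at 7.37 ± 2.62 CPM against 15.9 ± 2.44 CPM and BHLHE41, a clock repressor, at 5.63 ± 2.07 CPM against 11.8 ± 3.17 CPM. nfil3-5, of the family that opposes TEF, was at 139.6, 69.2, 79.6 and 117 CPM against 43.1, 12.4, 50.2, 39.7 and 28.3 CPM. NR1D1, or REV-ERB alpha, was at 5.99 to 28.0 CPM and 7.48 to 36.7 CPM and overlapped. Sampling times are not given in the labels.

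Most messages of matrix-producing cells had lower levels in the lower series, but their summed level did not. Of 19 tested stellate cell and fibroblast markers, 5 lay wholly below and none above, 15 had an unadjusted p under 0.05 with a negative change (11.3% of all genes did), and the median was -1.69. With upper-quartile factors 3 lay below, and with library size alone 4. The summed level was 5023 to 6250 CPM in the lower and 3539 to 6745 CPM in the upper series, and 1 gene row made up most of it. That row, FN1 ENSDARG00000006526, was at 5561 ± 539 CPM and 4321 ± 1405 CPM and overlapped. Without it the sums were 112 to 149.6 CPM against 186 to 664 CPM, which did not overlap. The other fibronectin row, FN1 (ENSDARG00000019815), was at 5.45, 4.67, 1.81 and 5.55 CPM against 33.98, 18.3, 8.73, 23.8 and 45.7 CPM (difference -2.58, SE 0.52, edgeR adjusted p = 0.0793). PDGFRB, the receptor of stellate cells for PDGF, was at 1.54 ± 0.136 CPM against 3.26 ± 0.85 CPM. SPARC, a matrix glycoprotein, was at 16.6 ± 5.44 CPM against 32.8 ± 4.85 CPM. Without fish 198 and 200, 10 of 18 stellate cell and fibroblast markers lay below, where 6.89% of all genes did, and the median was -1.17. Endothelial markers had 2 of 19 wholly below (10.5%, beside 3.1% of all tested genes) and none above, with a median of -0.46. With upper-quartile factors 1 lay below, as with library size alone. The summed levels of endothelial markers, 200.1 to 241 CPM against 267 to 388 CPM, did not overlap. Without fish 198 and 200, 8 of 19 lay below (42.1%), again beside 6.89% of all genes. Cell cycle genes had a median of -1.19 over 46 tested, with 2 wholly below (4.35%, beside 3.1% of all tested genes) and none above. Without fish 202 the median was -0.77. TOP2A, the topoisomerase of dividing cells, was at 0.149, 0.906, 0.115 and 1.45 CPM against 1.57, 2.16, 3.96, 5.69 and 28.7 CPM, while MCM5, of the replicative helicase, was at 2.96 ± 0.836 CPM and 2.86 ± 1.18 CPM. Macrophage markers averaged 1.11 to 3.82 log2 CPM in the lower and 1.71 to 4.88 in the upper series, so they overlapped. Hepatocyte markers had a median change of 0.10, with none of 19 apart.

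CYP1A1, vtg1 and cdkn1a, listed by name for other responses, overlapped between the series. CYP1A1 (cyp1a), the target of the aryl hydrocarbon receptor, was at 884 ± 145 CPM and 709 ± 145 CPM. vtg1, an egg yolk gene, was under 2.2 CPM in all fish, which are labelled male. cdkn1a, the p53 target p21, was at 2.68 ± 0.604 CPM and 3.88 ± 1.95 CPM.

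The same numbers split the other 2 sets of fish. At 3.75 nM, 1885 genes passed (11.9%): 1055 of 15842 genes were higher (6.66%) and 830 lower (5.24%) in the lower series. That count was 17 without fish 166 or fish 167 and 3512 without fish 189. At 3 years, with 2 fish in the lower series, 1 of 17016 passed (0.00588%) and 1224 had an unadjusted p under 0.05 (7.19%). Of the 5 genes that passed at 37.5 nM and 1 year, 3 had the same sign at 3.75 nM and 4 at 3 years. At 3.75 nM, 1 of the 5 also passed with that sign, and 0 of the 5 separated the series on the same side. Of 478 genes wholly below in the lower series at 37.5 nM and tested in all sets, 76.8% had the same sign at 3.75 nM and 65.1% at 3 years. Of 824 wholly above, 63% and 70.5% did. Over all 15301 genes tested in the 3 sets the shares were 60.7% and 57%. These last shares pool both directions and were not taken for each direction alone, so they are no like-for-like reference. The fish differ between the sets, so no sample is shared, but the 2 doses stand in separate deposited tables, and dose cannot be told apart from other differences between those tables.

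HSPD1 was at 328 to 454 CPM against 46.9 to 174 CPM at 3.75 nM (difference 1.75, SE 0.35, edgeR adjusted p = 0.022). At 3 years it was at 138 and 187 CPM against 31.7 to 66.0 CPM (difference 1.69, SE 0.34, edgeR adjusted p = 0.567). In each set of fish its series did not overlap. HYOU1 had differences of 1.91 at 3.75 nM (SE 0.49, edgeR adjusted p = 0.0381) and 1.46 at 3 years (SE 0.62, edgeR adjusted p = 0.69), beside 1.43 at 37.5 nM and 1 year. BBOX1 fell by 2.96 at 3.75 nM without overlap (SE 0.48, edgeR adjusted p = 0.0156), and its difference at 3 years was -1.34 with overlap (SE 0.71, edgeR adjusted p = 0.717). FAM13A fell by 2.80 at 3.75 nM (SE 0.68, edgeR adjusted p = 0.0335), although 4.64 to 13.5 CPM in the lower and 7.34 to 112 CPM in the upper series overlapped. At 3 years its difference was -0.76 with overlap (SE 0.45, edgeR adjusted p = 0.739). hamp was at 95.2 to 322 CPM against 2.95 to 117 CPM at 3.75 nM and at 15.1 and 55.1 CPM against 5.38 to 128 CPM at 3 years, overlapping in both sets. Median changes of the ER list were 0.46, 0.80 and 0.46 at 37.5 nM, at 3.75 nM and at 3 years. Those of the hypoxia list were -0.76, -0.41 and -0.42. The cytosolic ribosomal proteins had 0.27, -0.01 and 0.41.

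**Figure D5:**
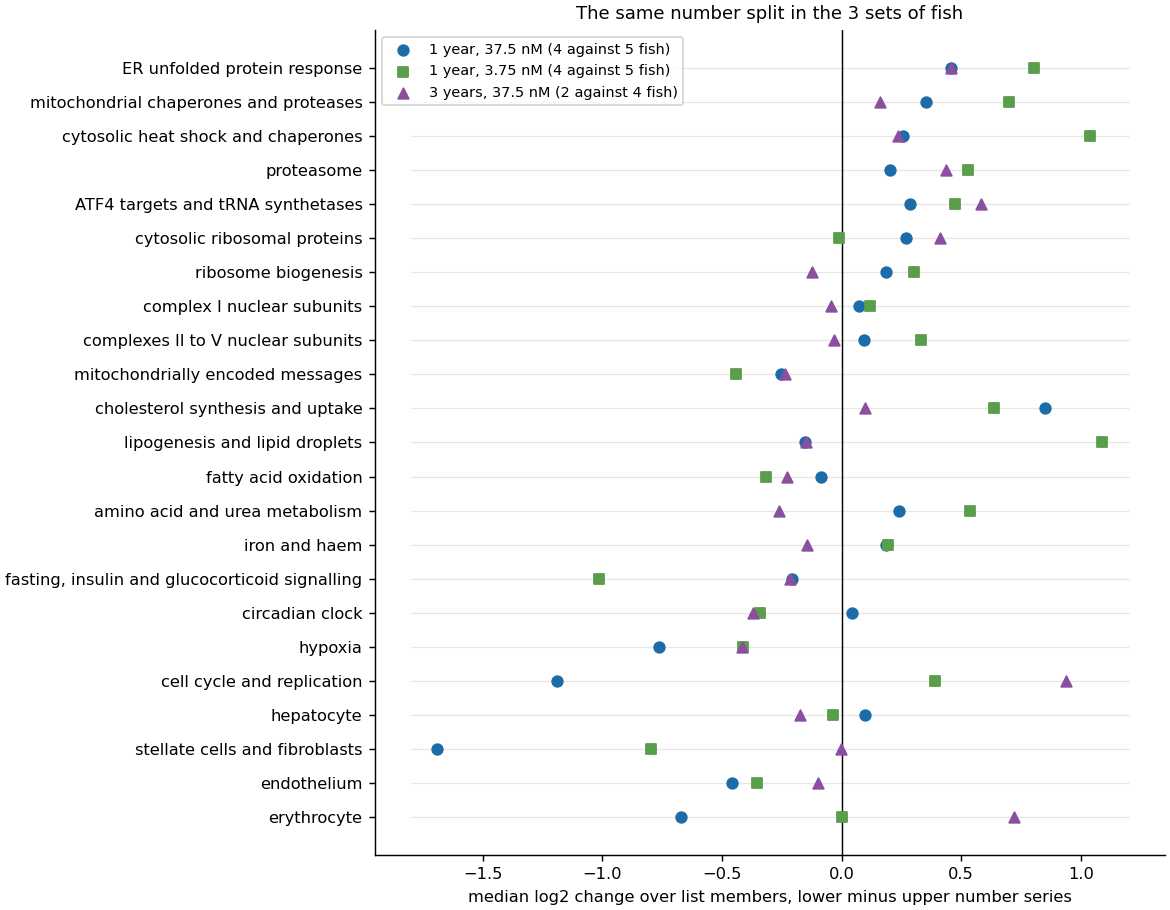
Median log2 change over the tested members of 23 gene lists, lower minus upper number series, in 1-year fish at 37.5 nM (circles), 1-year fish at 3.75 nM (squares) and 3-year fish at 37.5 nM (triangles). The ER list lies to the right in all 3 sets and the hypoxia list to the left, while lipogenesis is at 1.09 at 3.75 nM and at -0.15 at 37.5 nM.

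An interaction fit tested whether the number series change itself differed between the doses. It called 1089 of 17217 genes (6.33%), 786 with a more positive change at 37.5 nM and 303 with a more negative one; with RLE factors these were 659 and 401. HSP90AA1 was one of them. At 3.75 nM it was at 115 to 296 CPM in the lower and 2.80 to 8.14 CPM in the upper series, while at 37.5 nM all 9 fish were at 2.16 to 4.04 CPM. Its change was more negative at 37.5 nM by 5.07 log2 (a difference of -5.07, edgeR adjusted p = 0.000165). Of 43 cytosolic chaperone genes, 11 differed between the doses, each with a more negative change at 37.5 nM. In the ER list 0 of 40 genes and in the mitochondrial chaperone list 0 of 20 differed, with 6 and 5 at an unadjusted p under 0.05, as had 21.7% of all genes in that fit.

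ccdc141 had 1.36 to 5.55 CPM in the lower and 3.13 to 13.4 CPM in the upper series at 3.75 nM, where its change was -1.62 (SE 0.52, edgeR adjusted p = 0.072). Its change differed between the doses by 4.16 log2 (edgeR adjusted p = 0.00252), and that of MYH10 by 2.27 (edgeR adjusted p = 0.0055). Both genes were named for passing at 37.5 nM, an arm of this same contrast, so these values are no separate test. In FAM13A the difference between the doses was 0.77 (edgeR adjusted p = 0.54). In the list of fasting, insulin and glucocorticoid signalling, 7 of 36 genes had a more positive and 2 a more negative change at 37.5 nM. For lysosome and autophagy these were 9 and 0 of 60, and over all genes 786 and 303 of 17217. In lipogenesis, 4 of 27 had a more negative and 1 a more positive change at 37.5 nM. Between 1 and 3 years at 37.5 nM the interaction called 0 of 18276 genes in edgeR, with 1808 at an unadjusted p under 0.05 (9.89%), and no other tool was run on it. The 3-year fish also carried the transgene, which cannot be told apart from age here, and their lower series held 2 fish. The 0 calls therefore do not show that the change was the same at both ages.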

How the data were processed

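The values used are the counts per gene that the authors deposited. The submitters' processing notes name GRCz10 as the genome build and list CASAVA 1.8.2, STAR 2.4.1d and featureCounts 1.4.6-p4 as tools. Libraries used the TruSeq RNA v2 kit, per the labels' protocols, and whether the counting used strand is not given in the sources used here. Genes that overlap on opposite strands therefore cannot be told apart. Tables named RPKM were not used. Symbols came from a reference table (26269 of 32105 gene rows). Some symbols are human-style and shared by several rows, so identifiers are printed for those.

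Each comparison was fitted on its own in edgeR 4.0.16 (TMM factors, filterByExpr, two-sided quasi-likelihood test, Benjamini-Hochberg adjustment over all tested genes, threshold 0.05). To give an SE, the absolute log2 change was divided by the root of the F statistic. Between fish the biological coefficient of variation was 0.468. No 2 libraries of a group repeated each other (lowest chi-square per gene 82.3). Alternatives used DESeq2 1.42.0 and limma 3.58.1 in R 4.3.3, other scalings, filters, fits over more fish, left-out fish and marker covariates. The fit was tested on simulated data, and the outcome is not given here. The simulated fish were independent and held no library with other tissue. That simulation therefore cannot speak to how the calls moved between settings or left-out fish.

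Of 49 gene lists (1485 entries), 75 entries matched no row. Among the genes listed by name, hsp90aa1.1 and the other SLC4A1 row did not pass the filter on low counts. Lists are described by counts and medians, without a test. Genes were named by rule: past the threshold, the 10 highest and 10 lowest changes among genes without overlap whose mean reached 4 CPM, up to 2 members with the lowest p per list, and 14 genes listed by name; members named beyond these, and ncoa4, PDK4, BBOX1 and AACS, were chosen after their values were seen. Members and lists were chosen with earlier results of these data known. No sequence or promoter was examined.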

Additional observations from a re-analysis of the deposited data

Results flagged for a closer look

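In 140 groups of gene levels (70 genes, each in the 4 and the 5 fish) and 44 groups of library values, single fish stood far from the rest of their group in 9; chance gives about 1 in 20 groups. In the lower series, CPT1B was at 100.03 CPM in fish 173 against 298 to 334 CPM in the other 3. FN1 (ENSDARG00000019815) was at 1.81 CPM in fish 175 against 4.67 to 5.55 CPM. PPARGC1A was at 1.63 CPM in fish 175 against 11.9 to 15.4 CPM. BBOX1 was at 50.7 CPM in fish 174 against 28.4 to 30.5 CPM, and CYP1A1 was at 669 CPM in fish 177 against 929 to 975 CPM.

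In the upper series, ins was at 297 CPM in fish 198 against 0.263 to 1.76 CPM. PDGFRB was at 1.79 CPM in fish 200 against 3.40 to 3.94 CPM, and slc3a2a was at 217 CPM in fish 200 against 38.4 to 62.6 CPM. EPAS1 was at 356 CPM in fish 199 against 163 to 198 CPM.

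For 9 named genes the number series change differed between the doses in the edgeR interaction fit, which called 1089 of 17217 genes (6.33%). Many named genes were picked for a low p between the series at 37.5 nM, an arm of this same contrast. A high share among them was therefore built in. The change was more positive at 37.5 nM by 4.16 log2 in ccdc141 (adjusted p = 0.00252), by 2.27 in MYH10 (adjusted p = 0.0055), by 2.14 in XDH (adjusted p = 0.00983), by 1.44 in herc7 (adjusted p = 0.0479) and by 1.04 in crtc2 (adjusted p = 0.0339). It was more negative at 37.5 nM in HSP90AA1, with a difference of -5.07 (edgeR adjusted p = 0.000165). So it was in FN1 (ENSDARG00000019815) with -2.77 (edgeR adjusted p = 0.0431). The same held for SLC2A1 with -1.87 (edgeR adjusted p = 0.0133) and HDAC4 with -1.85 (edgeR adjusted p = 0.0188). The fish at the 2 doses were deposited in separate tables, which cannot be told apart from dose.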

How the results depend on the processing

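The count of genes past the threshold between the series was 5. It was 4 with RLE factors and 5 without the 2 fish with high intestine markers, but only 1 of those 5 was a gene of the main fit. It was 11 with upper-quartile factors, 18 with library size alone, 3 with no filter, 37 with at least 1 CPM in 4 libraries, 13 with all 15 fish at 37.5 nM in 1 fit and 12 with all 24 fish in 1 fit. DESeq2 called 1759 of 18740 genes and limma voom with quality weights 447 of 15958. With marker covariates it was 20 (intestine), 1 (erythrocyte) and 0 (stellate cells and fibroblasts, added after the data were seen). The stellate cell and fibroblast markers did not overlap between the series, so that fit cannot tell them apart from the number series. Leaving out 1 fish gave 0 to 72. At 3.75 nM the count was 1885, from 17 to 3512 when 1 fish was left out (17 without fish 166 or fish 167, 3512 without fish 189). At 3 years it was 1, from 0 to 1; without fish 178 or fish 181 the lone lower-series fish is assumed to vary like the others. The interaction with dose called 1089 genes in edgeR and 1988 in DESeq2, and it was not repeated with single fish left out. The causes were not tested.

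Of 67 named gene rows, DESeq2 called 56 and voom 38, beside 1759 of 18740 and 447 of 15958 genes over all tested. Many of the 67 were named for a low p in these same fish, so a high share was built in. Directions turned in 4 genes that were far from the threshold. GNL3 was at -0.0034 log2 with RLE factors, -0.035 with library size alone and -0.0066 with the filter of 1 CPM, and from -0.071 to 0.15 without 1 fish. MCM5 was at -0.045 with library size alone, -0.26 with the stellate covariate, and from -0.14 to 0.27 without 1 fish. PER1 (ENSDARG00000012499) was at -0.021 with the intestine covariate, -0.22 with the stellate covariate and from -0.065 to 0.38 without 1 fish. vtg1 ran from -1.60 to 0.30 without 1 fish. No paired analysis was possible because the series share no fish number. What counting depth limits was not tested.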
